A study of Homo sapiens with 13 samples.

Results

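SERPINA1, OSBPL11, H1-2, THOP1 and BATF are 5 of the 4604 named genes on a spotted cDNA array, the Lymphochip, that was used to follow knockdown of the transcription factor IRF4 in myeloma cell lines. They were chosen by their measured ratios, namely by the difference between the H929 line at day 4 and the KMS12 line at days 4-5, so that difference is described below and not tested. Together they have 9 of the 15246 features: SERPINA1, OSBPL11, H1-2 (older name HIST1H1C) and THOP1 have 1 each and BATF has 5. Of these 9 features, 5 passed the filter on missing values, 1 for each gene.

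The 13 two-colour arrays each compared 2 cultures of a myeloma line, one infected with a doxycycline-inducible short hairpin RNA against IRF4 (labelled with Cy5) and one with a control hairpin against luciferase, shluc (labelled with Cy3). A log2 ratio below 0 therefore means less mRNA in the IRF4 hairpin culture. Hairpin 2046 at day 4 of doxycycline (20 ng/ml) was hybridised on 2 repeat arrays for H929 and on 1 for SKMM1. KMS12 was followed in series named 1332, 1332b and 2046, each with an uninduced array, an array at day 2 or 3 and an array at day 4 or 5. Doxycycline was 20 ng/ml for every induced KMS12 array and absent for the uninduced ones. The names are those of hairpins 1332 and 2046, so series 1332 and 1332b differ from H929 and SKMM1 in hairpin as well as in line. In those series the 2 cannot be told apart. Series 1332 was sampled at days 3 and 5 and also at day 7, and the other series at days 2 and 4. No uninduced array of H929 or SKMM1 was analysed here, so in these lines a difference between the infected cultures that was present before induction cannot be told apart from the response. Whether repeats are separate cultures is not stated in the labels, and p-values then reflect only array-to-array spread, which may be technical.

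Plasma cells, and the myeloma cells that derive from them, depend on the transcription factor IRF4. On DNA it binds weakly alone and more firmly beside partners: ETS factors such as PU.1 at composite ETS-IRF elements, and dimers of BATF with a JUN protein at composite AP-1-IRF elements. BATF is a small basic leucine zipper protein known in B cells for its part in antibody class switching. The other 4 genes lie outside that pathway. SERPINA1 encodes alpha-1 antitrypsin, a secreted inhibitor of neutrophil elastase made mainly by the liver and also by monocytes. OSBPL11 belongs to the oxysterol binding protein family, which carries lipids between membranes. H1-2 is a linker histone that binds DNA between nucleosomes. THOP1 is thimet oligopeptidase, a cytosolic zinc peptidase that cuts short peptides, among them products of the proteasome.

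Arrays had values for 7140 to 14228 features, and tests ran over 4728 genes or unnamed features. Ratios were centred per array on the median of the features kept, so every ratio is relative to the median feature. IRF4 stood at 27.2% of control in H929 (mean of 2 arrays) and 24.6% in SKMM1. In KMS12 it stood at 113% uninduced, 40.0% at days 2-3 and 63.4% at days 4-5 (means of 3 arrays each). IRF4 was thus lower on every induced array, but it gives no check of the sign on the uninduced arrays. The lowest correlation between 2 arrays was -0.328, between the SKMM1 array and the series 2046 uninduced array. The dyes in the labels set the direction, and it was kept.

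**Figure D1:**
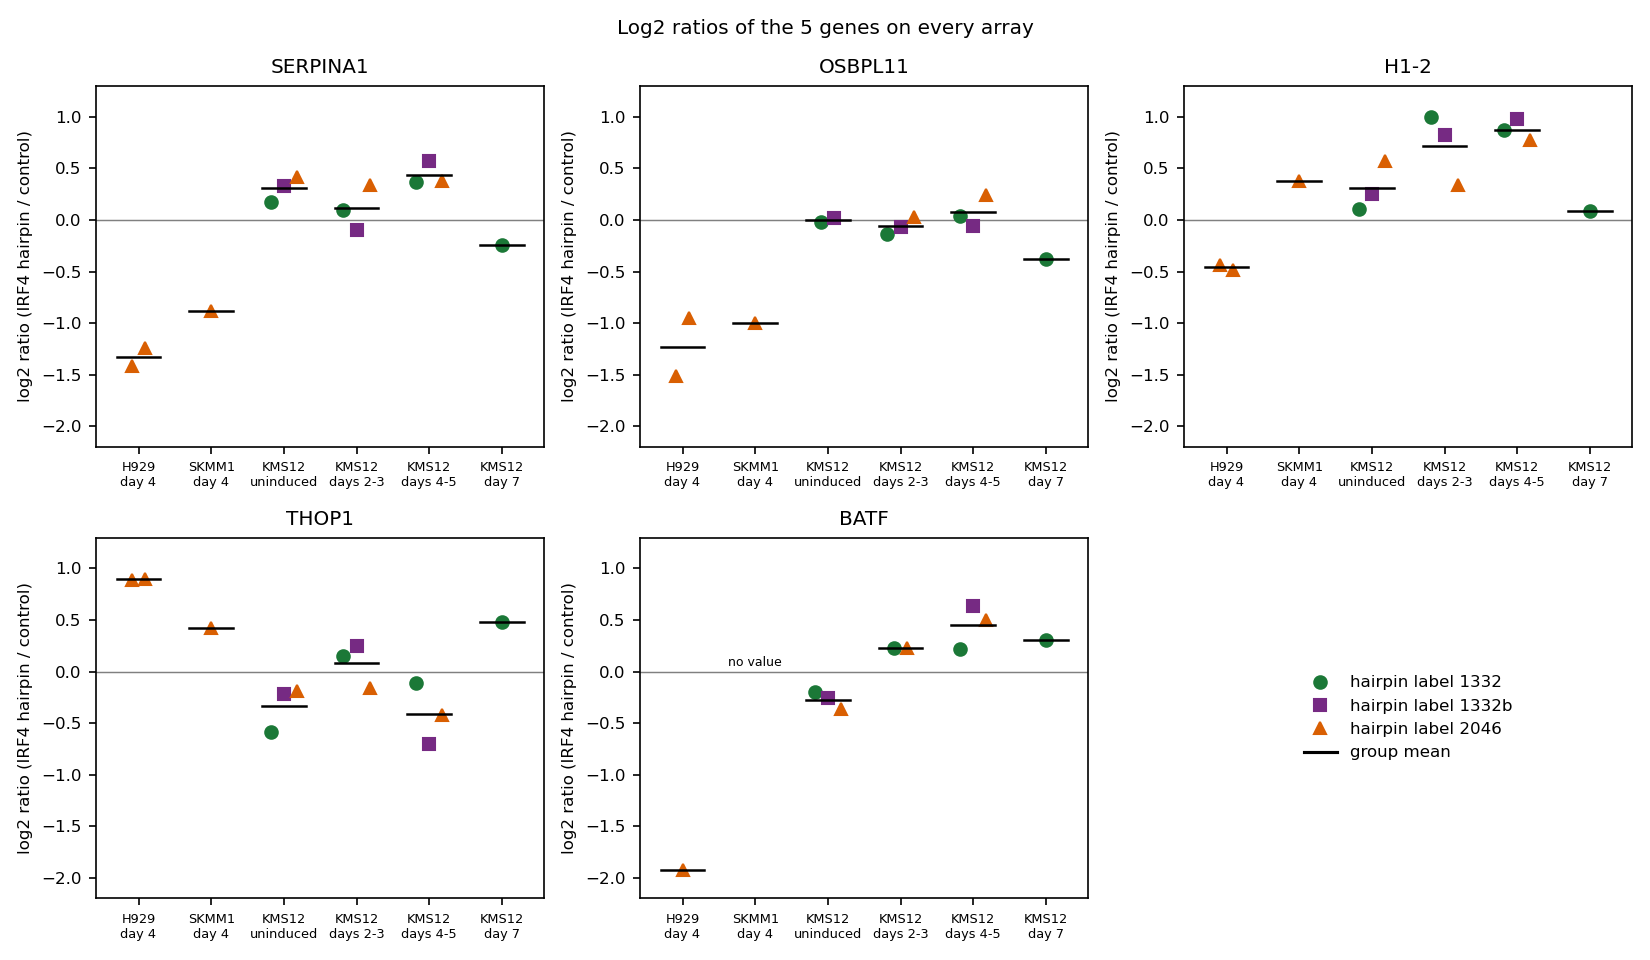
Log2 ratio of IRF4 hairpin over control culture for each of the 5 genes on every array, as centred values averaged over features that passed the filter. Points are arrays, with shape and colour for the hairpin label, and black bars are group means. SERPINA1 and OSBPL11 lie lowest in H929 and SKMM1, THOP1 lies above 0 in both lines, and H1-2 lies below 0 in H929 alone. BATF has 1 value in H929 and none in SKMM1.

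In the contrast of H929 at day 4 with KMS12 at days 4-5 that singled these genes out, 4 genes were lower in H929 and THOP1 was higher. The log2 differences were -1.77 for SERPINA1, -2.39 for BATF, -1.34 for H1-2, -1.31 for OSBPL11 and 1.31 for THOP1. By p over the 4607 genes in this contrast they ranked 1, 2, 7, 9 and 11 in that order. Only SERPINA1 and BATF had a limma adjusted p under 0.05 there, and they were the only genes that did, 0.0434% of those tested. The adjusted p was 0.0192 for BATF on the near side of that threshold and 0.0567 for H1-2, OSBPL11 and THOP1 on the far side. These figures describe the choice of the genes and carry no weight as a test. The KMS12 array with the same hairpin and day (2046, day 4) gave differences of -1.71, -2.44, -1.24, -1.47 and 1.32 in the same order.

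SERPINA1 was below control in both lines other than KMS12. Its ratio was 42.2% and 37.5% of control on H929 repeats 1 and 2 and 54.3% on the SKMM1 array. The KMS12 arrays gave 113%, 126% and 134% uninduced, 107%, 93.2% and 126% at days 2-3, and 129%, 149% and 130% at days 4-5, for series 1332, 1332b and 2046 in each case. The H929 and SKMM1 values lay below all 9 of these KMS12 values, as for 5.21% of the 2608 genes measured on these 12 arrays, and the H929 part of this was fixed by the choice. In SKMM1 alone 11.7% of genes stood as low as SERPINA1 or lower. The SKMM1 ratio played no part in the choice. At -0.88 in log2 (SE 0.23, 1 array assumed to vary like the other groups) it did not pass against 0 (limma adjusted p = 0.0573). In that comparison 3.76% of 4199 genes passed (2.69% lower and 1.07% higher). The SE comes from the spread of the other groups, among them the H929 and KMS12 arrays that chose the genes. So the p-values of these genes in SKMM1, where BATF had none, are not free of the choice. Set against the KMS12 uninduced arrays instead of 0, where a dye effect of the gene itself would cancel, the difference was -1.19 (SE 0.27) and passed (limma adjusted p = 0.0458), as 2.62% of genes did. It also passed among features measured on all 13 arrays (-0.87, limma adjusted p = 0.028), where 11.4% of the 2257 genes and unnamed features did. Over the alternatives the adjusted p ran between 0.028 and 0.109. In KMS12, days 2-3 against uninduced gave a log2 difference of -0.20 (SE 0.19), lower in 3 of 3 series with overlapping groups, and did not pass (limma adjusted p = 0.52). In that comparison limma called 0 of 4728 genes, 0%, while 1222 had an unadjusted p under 0.05. The KMS12 difference turned to 0.11 when the days 2-3 arrays were set against 0. IRF4 was lowered less on each induced KMS12 array than on the H929 arrays, and the part of this in the difference was not tested. On the KMS12 series 1332b array at day 2 IRF4 stood at 29.1% of control, beside 28.9% on H929 repeat 1. On that KMS12 array SERPINA1 stood at 93.2%, OSBPL11 at 95.1%, THOP1 at 119% and H1-2 at 176%, and BATF had no value. It is 1 array, of another day and series than H929, and nothing was tested on it.

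OSBPL11 followed SERPINA1 closely. Its ratio was 51.8% and 35% of control on H929 repeats 1 and 2 and 50.1% in SKMM1. In KMS12 it stayed between 90.9% and 118% on the 8 arrays up to day 5 that measured it. The SKMM1 value, a log2 ratio of -0.998 (SE 0.25), did not pass against 0 (limma adjusted p = 0.0552), and 9.22% of genes stood as low or lower. It passed without centring (-1.16, limma adjusted p = 0.043), where 4.26% of genes did, and missed the threshold against the KMS12 uninduced arrays (-0.999, limma adjusted p = 0.0921). Over the alternatives the adjusted p ran between 0.043 and 0.1. Days 2-3 against uninduced differed by -0.06 (SE 0.23, limma adjusted p = 0.881), with 2 uninduced arrays, since the series 2046 one had no value. The H929 repeats were further apart for OSBPL11 than for the other genes measured on both (log2 -0.95 and -1.51), and leaving out repeat 1 or repeat 2 gave a difference from KMS12 of -1.59 or -1.02.

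Across the arrays that measured both, the ratios of OSBPL11 and SERPINA1 had a Pearson r of 0.96 (12 arrays). These arrays include the H929 and KMS12 values that chose both genes as lower in H929, so much of this likeness was fixed by the choice. The windows of 250 bases before their annotated starts are shown because both genes were also low in SKMM1, which was not used to choose them (RefSeq, GRCh38.p14, 5′ to 3′ on the gene's strand). Over all features, however, the SKMM1 array correlated with H929 repeats 1 and 2 at r = 0.61 and 0.639, near the 0.624 between the repeats. Genes low in H929 thus tended to be low in SKMM1 too. RefSeq gives 2 starts for SERPINA1, at chr14:94390636-94390885 and chr14:94388603-94388852, and 1 for OSBPL11, at chr3:125595498-125595747, all on the minus strand. Both strands were searched for 4 strings, the AP-1 element TGANTCA, the promoter element CCAAT, the TATA element TATANA and the linker histone element AAACACA, and a match would stand in capitals. Longer elements that bind IRF4 are not reported here.
SERPINA1 start A: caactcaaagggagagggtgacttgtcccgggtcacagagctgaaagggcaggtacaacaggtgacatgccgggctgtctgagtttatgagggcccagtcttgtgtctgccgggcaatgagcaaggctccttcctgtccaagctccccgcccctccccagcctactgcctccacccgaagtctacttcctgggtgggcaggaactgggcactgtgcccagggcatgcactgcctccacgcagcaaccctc
SERPINA1 start B: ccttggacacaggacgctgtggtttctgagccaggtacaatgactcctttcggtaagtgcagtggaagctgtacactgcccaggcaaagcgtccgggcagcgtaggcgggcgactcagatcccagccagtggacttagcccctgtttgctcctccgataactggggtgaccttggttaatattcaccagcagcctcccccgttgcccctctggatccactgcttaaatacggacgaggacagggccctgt
OSBPL11: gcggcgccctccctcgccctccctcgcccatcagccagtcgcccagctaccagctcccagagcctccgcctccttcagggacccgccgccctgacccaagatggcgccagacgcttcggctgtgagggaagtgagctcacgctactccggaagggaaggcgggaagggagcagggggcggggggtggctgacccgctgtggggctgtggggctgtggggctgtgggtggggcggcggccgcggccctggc
None of these windows held any of the 4 strings, while 6.57% of all 35116 promoter windows of this length held the AP-1 element. No match says only that these letters are not in these windows. The windows differed in base composition, with 61.6% and 58% G or C for SERPINA1 and 74% for OSBPL11.

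The choice of the genes bears in the same way on the likeness of other genes to them. The named genes whose ratios ran most like SERPINA1 over 13 arrays, of 1702 compared, were TXNIP, which restrains glucose uptake (r = 0.935), ALDH9A1, an aldehyde dehydrogenase (0.935), and CCNB1, the mitotic cyclin B1 (0.921). TXNIP had a mean log2 ratio of -0.78 in H929 and -0.82 in SKMM1, against 0.25 in KMS12 at days 4-5. For OSBPL11, over 12 arrays, they were ALDH9A1 (0.969), SERPINA1 itself (0.957) and EZR, ezrin, which ties the membrane to actin (0.937). The genes running most opposite to SERPINA1 were THOP1 (-0.903) and TBRG4 (-0.897), and those most opposite to OSBPL11 were LOC155060 (-0.858) and BIN2 (-0.839).

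**Figure D2:**
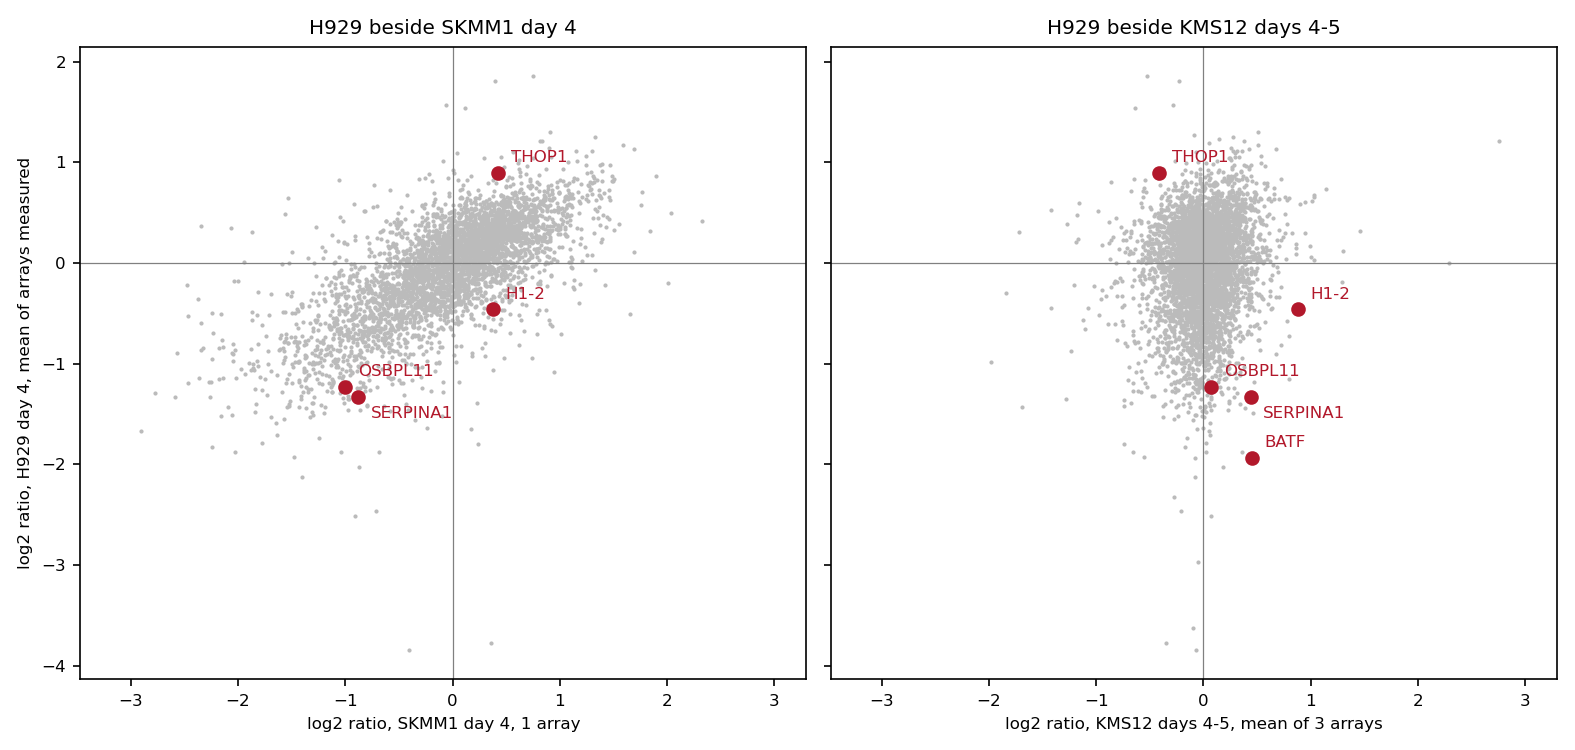
Mean log2 ratio in H929 at day 4 (vertical axis) for each tested gene, against SKMM1 at day 4 (left) and KMS12 at days 4-5 (right), with the 5 genes in red and all others in grey. SERPINA1 and OSBPL11 lie low in both H929 and SKMM1, and H1-2 lies below 0 in H929 and above 0 in SKMM1. BATF had no value in SKMM1 and appears on the right panel only.

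THOP1 went the other way. Its ratio was 186% of control on both H929 arrays and 134% in SKMM1. The KMS12 arrays gave 66.6%, 85.7% and 87.8% uninduced, 111%, 119% and 89.2% at days 2-3, and 92.6%, 61.7% and 74.5% at days 4-5, for series 1332, 1332b and 2046. The H929 and SKMM1 values lay above all 9, as for 4.14% of the 2608 genes, and the H929 part was fixed by the choice. The KMS12 array at day 7, not among these 9, stood at 139%, above the SKMM1 value. Within KMS12 the days 2-3 values lay above the uninduced values without overlap, narrowly in series 2046 (89.2% against a highest uninduced value of 87.8%). Of the 3633 genes measured on all 6 of these arrays, 32.2% had groups that did not overlap. The log2 difference was 0.41 (SE 0.22), higher in 3 of 3 series by 0.73, 0.47 and 0.02, and it did not pass (limma adjusted p = 0.246). In SKMM1 the log2 ratio of 0.42 (SE 0.26) did not pass against 0 (limma adjusted p = 0.348), nor did the difference from the uninduced KMS12 arrays (0.76, SE 0.31, limma adjusted p = 0.159). The genes most like THOP1 over 13 arrays were SENP3, a SUMO protease (r = 0.921), SMPD2, a neutral sphingomyelinase (0.888), and MAX, the DNA-binding partner of MYC (0.877). The most opposite were ARL2BP (-0.934) and VEGFA, the endothelial growth factor (-0.926). VEGFA had a mean log2 ratio of -1.01 in H929 and -0.84 in SKMM1, against 0.01 in KMS12 at days 4-5.

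Of 25 other genes listed for peptide trimming and antigen processing, 9 were tested. None passed at days 2-3 against uninduced in KMS12 or in SKMM1 against 0. On the 2 H929 arrays 5 of the 8 measured on both lay below 0 on both and 1 above, while over all genes 37.1% lay below and 41.1% above. ERAP1, which trims peptides in the endoplasmic reticulum, stood at a mean of -0.91 in H929 and -0.49 in SKMM1. In KMS12 it stood at -0.455 at days 2-3 and 0.03 at days 4-5. TAP2, a subunit of the peptide transporter, stood at -0.37 in H929. TAPBP (-0.07) and RNPEP (0.09) were the highest of the list there.

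H1-2 lay below control in H929 and above it in SKMM1 and KMS12. The difference between H929 and KMS12 chose the gene, and H929 was not tested against SKMM1. The H1-2 ratio was 71.9% and 73.8% of control on H929 repeats 1 and 2 and 130% in SKMM1. In KMS12 it was above 100% on every array, at 108%, 119% and 148% uninduced, 200%, 176% and 127% at days 2-3, and 183%, 198% and 172% at days 4-5, for series 1332, 1332b and 2046. The days 4-5 values, which took part in the choice, lay above every uninduced value, as for 5.47% of 3623 genes, while the days 2-3 values overlapped the uninduced ones through series 2046. Days 2-3 against uninduced gave a log2 difference of 0.41 (SE 0.22), higher in 2 of 3 series, and did not pass (limma adjusted p = 0.248). Against 0 the days 2-3 mean of 0.72 passed (limma adjusted p = 0.0169), as 19.1% of genes did, which leaves a gene-specific dye effect and the uninduced offset of 0.31 in the value. In SKMM1 the log2 ratio was 0.38 (SE 0.26) and did not pass (limma adjusted p = 0.41). In H929 the H1-2 mean of -0.46 was far from extreme, since 20.2% of genes stood as low or lower, whereas in KMS12 the mean at days 4-5 was 0.88. The KMS12 mean was thus further from 0 than the H929 mean, but it holds the uninduced offset of 0.31. Days 4-5 minus uninduced gave a log2 difference of 0.57, and no uninduced H929 array was analysed to set beside it.

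The window before the H1-2 start is shown because it holds the elements known from linker histone genes. It lies on the minus strand of chromosome 6, at chr6:26056471-26056720, and capitals mark matches to the strings listed above.
H1-2: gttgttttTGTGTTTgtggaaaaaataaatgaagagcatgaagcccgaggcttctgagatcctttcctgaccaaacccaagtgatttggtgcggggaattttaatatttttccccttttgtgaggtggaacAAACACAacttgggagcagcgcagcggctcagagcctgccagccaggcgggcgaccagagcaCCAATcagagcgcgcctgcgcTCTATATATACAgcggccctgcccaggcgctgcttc
The stretch held AAACACA on both strands, the forward copy 119 to 113 bases before the start, CCAAT at 57 to 53 bases, and overlapping TATANA matches from 36 to 25 bases. Of all windows 4.82% held AAACACA, 32% held CCAAT and 17.7% held TATANA. It did not hold the AP-1 string. The coding parts of linker histone genes are much alike, so the spotted cDNA may also have bound transcripts of other H1 genes, which was not tested.

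Among the 1702 named genes compared, all measured on 13 arrays, H2BC12, a histone H2B gene, had the pattern most like H1-2 (r = 0.851). The histone genes H1-3, H1-5, H1-10, H2AZ2 and H4C2 lacked a value on some arrays and were not compared. H2BC12 stood at 0.06 in H929 (2 arrays) and 0.79 in SKMM1. In KMS12 it stood at 0.35 uninduced, 0.71 at days 2-3 and 1.00 at days 4-5 (log2 means of 3 arrays). CTSB, the lysosomal protease cathepsin B (0.811), and FN1, fibronectin (0.807), followed, and DUSP7 (-0.780) and TMED10 (-0.726) were most opposite. Of 47 other listed histone genes and partners 10 were tested. At days 2-3 against uninduced 8 of the 10 lay above 0, with a median log2 difference of 0.46, beside 53.8% and 0.05 over all genes. None passed, and H2AX and H4C2 had a limma adjusted p under 0.1, as did 504 of all 4728 genes and unnamed features. At days 4-5 against uninduced 8 of 10 again lay above 0 with a median of 0.52, beside 52.8% and 0.02 over all genes. The windows share the uninduced arrays. Among the other linker histones, H1-3 and H1-5 had group means on the same side of 0 as H1-2 in H929, SKMM1 and KMS12 at days 4-5. H1-3 had -0.69 and -0.01 on the H929 repeats, 0.22 in SKMM1 and a mean of 0.44 in KMS12 at days 4-5. H1-5 had -0.53 and 0.18 in H929, on both sides of 0, 0.66 in SKMM1 and 0.63 in KMS12 at days 4-5. Their uninduced KMS12 means were -0.65 and -0.22, where H1-2 stood at 0.31. H1-10 had -0.70 and -0.13 in H929, -0.26 in SKMM1 and -0.14 in KMS12 at days 4-5 (2 arrays). H3-3B, a replication-independent H3 gene, was lowest of the list in H929 at -0.59 and stood at -0.435 in SKMM1.

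**Figure D3:**
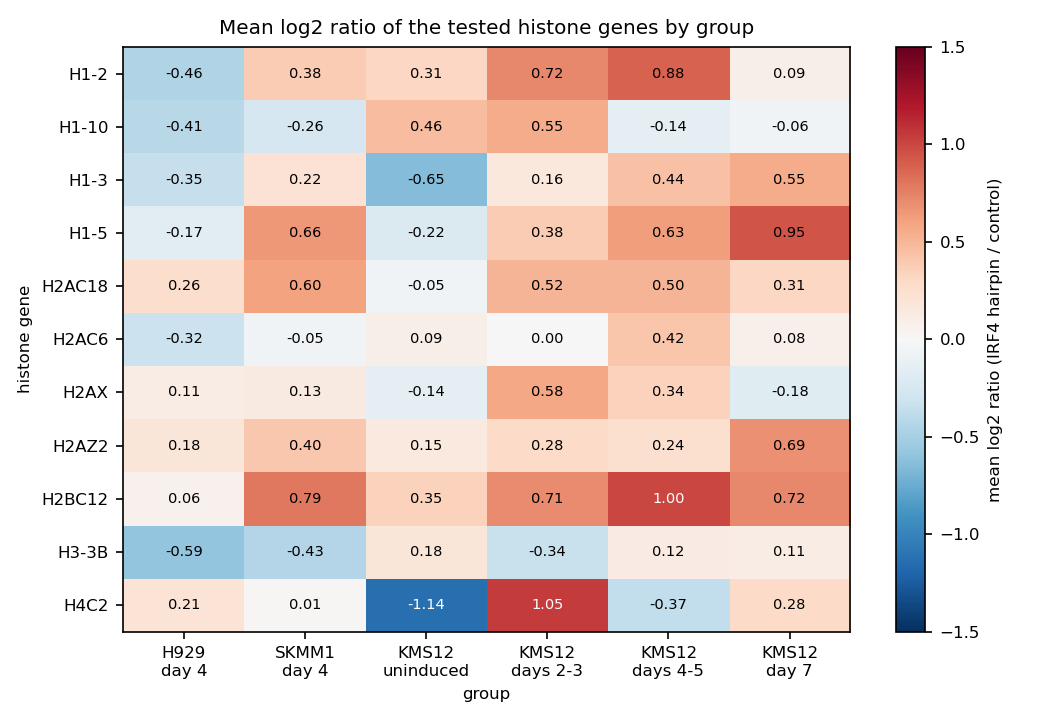
Mean log2 ratio of H1-2 and the 10 other tested histone genes in each group (columns), with red above 0 and blue below 0 and the mean printed in each cell. H1-2 and H2BC12 reach 0.88 and 1.00 in KMS12 at days 4-5, while the H929 means of H1-2, H1-10, H1-3, H1-5, H2AC6 and H3-3B lie below 0.

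The BATF features did not share the low value seen in H929. The value that put BATF among these genes came from 1 feature, 37616_1, on 1 array, H929 repeat 2, at 26.2% of control (log2 -1.93). That feature had no value on H929 repeat 1 or on SKMM1. On the same H929 array the other BATF features with a value, 36274_1 and 38096_1, stood at 0.23 and 0.26. The gap of 2.19 between the BATF features on that array was matched or passed by 1.93% of the 672 genes with 3 or more features there, whose median gap was 0.68. On H929 repeat 1, 4 features stood at -0.03, -0.27, 0.54 and -0.19 (36274_1, 37086_1, 38040_1 and 38096_1). On SKMM1, 3 features stood at -0.04, 0.32 and 0.80 (36274_1, 38040_1 and 38096_1). So none of the 9 other BATF values in H929 and SKMM1 came near the one that carried the contrast. With all 5 features averaged per array, the H929 difference from KMS12 at days 4-5 was -0.46 (SE 0.33) in place of -2.39.

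In KMS12 the BATF features moved together on some arrays and not on others. On the series 2046 uninduced array all 5 lay below 0, between -1.04 and -0.36. On the series 1332b array at day 4 all 4 that were measured lay above 0, between 0.64 and 0.95. On the series 2046 array at day 4 they spread from -1.42 to 0.50, with 36274_1 and 37086_1 low and 37616_1 high. The feature that passed the filter, 37616_1, stood at -0.20, -0.26 and -0.36 uninduced, at 0.23 and 0.23 at days 2-3 (series 1332 and 2046, none for 1332b) and at 0.22, 0.64 and 0.50 at days 4-5. Every induced KMS12 value of 37616_1, day 7 included, lay above every uninduced one, as for 1.44% of 3401 genes, and the days 4-5 values took part in the choice. Days 2-3 against uninduced gave a log2 difference of 0.50 (SE 0.22, 2 arrays against 3), which did not pass (limma adjusted p = 0.184).

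**Figure D4:**
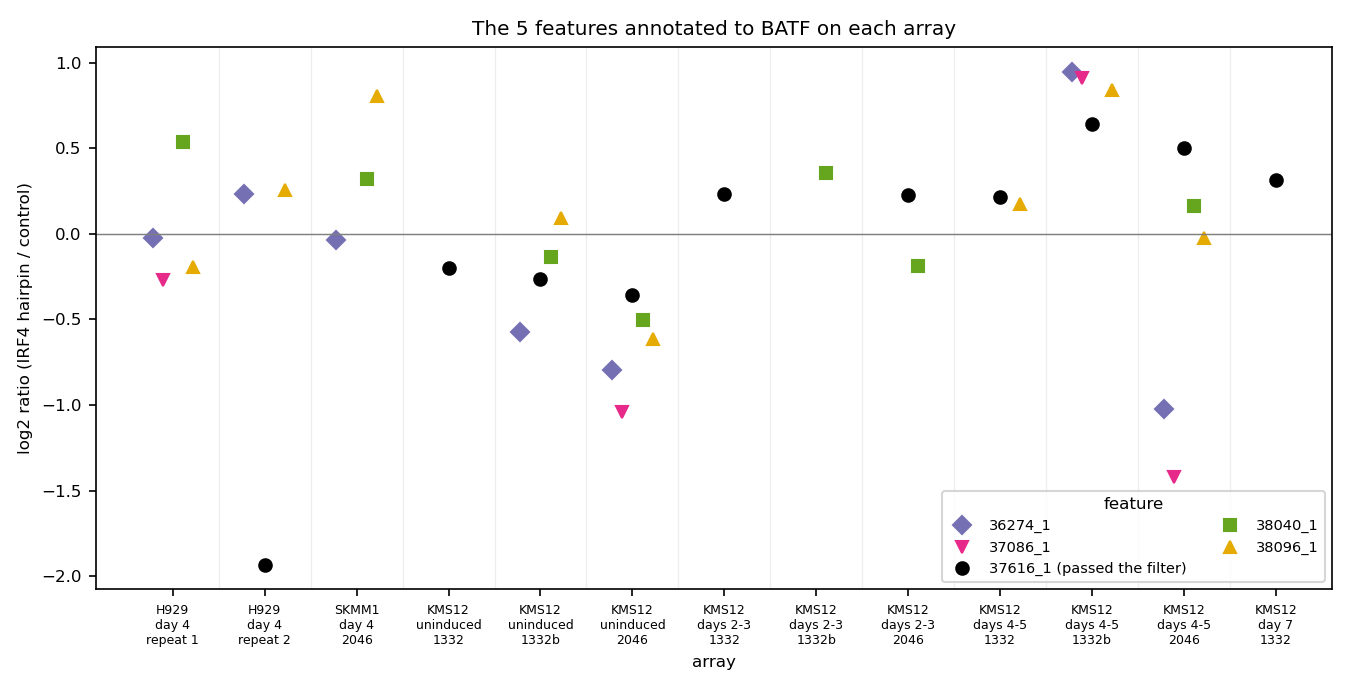
Log2 ratio of IRF4 hairpin over control culture for each of the 5 features annotated to BATF on each of the 13 arrays, with 1 symbol per feature and the one that passed the filter in black. The black point at -1.93 on H929 repeat 2 stands apart from the other BATF features on that array, at 0.23 and 0.26.

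The genes most like BATF, over the 10 arrays with a value and so with the single H929 point included, were PIK3C3, a lipid kinase of autophagy (r = 0.951), UBQLN2, a ubiquitin-binding shuttle (0.892), and CTSB (0.884). USP6 (-0.890) and BIN2 (-0.886) were most opposite. Of 26 other listed genes of the AP-1, MAF and related leucine zipper families 14 were tested, and none passed at days 2-3 against uninduced or in SKMM1 against 0. Of the 11 measured on both H929 arrays, 7 lay below 0 on both and 3 above, beside 37.1% and 41.1% over all genes. XBP1, a driver of antibody secretion, stood at a mean log2 ratio of -0.83 in H929 and -0.70 in SKMM1, against -0.02 in KMS12 at days 4-5. NFE2L2, the regulator of the oxidative stress response, stood at -0.53 in H929. In KMS12 it was lower still at days 2-3, at a mean of -1.16, and stood at -0.03 at days 4-5. FOS, an AP-1 subunit, stood at 0.45 in H929 and 0.41 in SKMM1, and MAF at 0.70 in H929 and 0.66 in SKMM1.

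Little else of the SERPINA1 and OSBPL11 families was measured. Of 24 other listed serpins 1 was tested, SERPINB1, an intracellular inhibitor of neutrophil proteases. It stood at a mean log2 ratio of 0.87 in H929 and 0.81 in SKMM1 (limma adjusted p = 0.129), the side opposite to SERPINA1. In KMS12 SERPINB1 stood at 0.43 at days 2-3 and 0.05 at days 4-5. Among 5 tested genes of the acute phase response and its signalling, IL6ST, the shared receptor chain of interleukin 6, stood at -0.72 in H929 and -0.82 in SKMM1, and SOCS3, its feedback inhibitor, at 0.35 and 0.29. In KMS12 IL6ST stood at -0.745 at days 2-3 and -0.01 at days 4-5. STAT3 stood at -0.04 and A2M at 0.16 in H929. None of the 5 passed at days 2-3 or, for the 4 measured there, in SKMM1. Of 23 other oxysterol binding and sterol transport genes 3 were tested and none passed. OSBPL8 stood at -0.49 and STARD4 at 0.73 on the 1 H929 array that measured each. In KMS12 at days 2-3 their means were -1.05 and 0.65.

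Markers of cell types were read beside these values. Plasma cell markers had a median log2 ratio of -0.50 in H929 and -0.23 in SKMM1 (11 genes). In KMS12 their median was 0.02 uninduced, -0.57 at days 2-3 and -0.33 at days 4-5. In SKMM1 PRDM1 and IRF4, the knocked-down gene itself, passed as lower, as 2.69% of all genes tested there did. On both H929 arrays 7 of the 11 lay below 0 and 3 above, beside 37.1% and 41.1% over all genes. ELL2 stood at 0.52 in H929 and 1.35 in SKMM1 (limma adjusted p = 0.0698). In KMS12 it stood at -0.87 at days 2-3 and -0.99 at days 4-5. T cell markers had medians of 0.40 in H929 and 0.46 in SKMM1 (6 genes), and of 0.30 and 0.23 in KMS12 at days 2-3 and 4-5. The 2 measured myeloid markers had medians of 0.06 in H929 and 0.02 in SKMM1, and of 0.003 and 0.105 in KMS12 at days 2-3 and 4-5. B cell markers (8 genes tested) had a median of -0.17 in H929 and 0.29 in SKMM1, and of 0.31 and -0.03 in KMS12 at days 2-3 and 4-5. Of the 6 measured on both H929 arrays, 1 lay below 0 on both and 2 above. The part of any of these markers in the values of the 5 genes was not tested, and ratios give no level that would show a marker absent. In mixed RNA of a culture, fewer cells with a transcript and less of it per cell cannot be told apart.

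Before induction none of the 5 genes differed from 0 past the threshold in KMS12, where limma called 0 of 4728 genes and 379 had an unadjusted p under 0.05. The uninduced means were 0.31 ± 0.13 for SERPINA1 (SD, n = 3) and 0.31 ± 0.24 for H1-2 (SD, n = 3). They were -0.33 ± 0.22 for THOP1 (SD, n = 3) and -0.28 ± 0.08 for BATF (SD, n = 3). The limma adjusted p lay between 0.602 and 0.998 for the 5 genes. These offsets have the sign of the later KMS12 mean at days 4-5 for SERPINA1, H1-2 and THOP1, and the opposite sign for BATF.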

How the data were processed

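The deposited table holds 1 log ratio per feature and array, which the authors had normalized near a median of 0. It was read as log2 by its range, since neither its base nor the authors' background correction, scaling and blank-spot rule is given in the sources used here. Direction follows the dyes per the labels. Symbols came from the platform annotation, updated through gene identifiers (10128 of 10169 named features matched). Features measured on at least 10 of 13 arrays and 2 of 3 in each KMS12 window were kept (6879), arrays were centred on their median over these (-0.158 to 0.282 before centring) and features averaged per gene.

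The 6 groups' means came from a limma fit (version 3.58.1, R 4.3.3; two-sided, Benjamini-Hochberg over all genes tested, threshold 0.05), a step tested on simulated data. The 5 genes and the lists were chosen with earlier results of these data known. Genes named beside them follow a rule: the 3 highest and 2 lowest correlations with each gene, and the 2 lowest and 2 highest of each list in H929. Same-series deviations correlated at 0.154 to 0.196 between days 2-3 and uninduced arrays, and at 0.157 to 0.212 between days 4-5 and uninduced. Between days 4-5 and days 2-3, which were not compared, they ran between -0.0908 and 0.377. The reported fit held no term for the series, so its SEs and p-values are unpaired. A series block was run only as an alternative. Alternatives covered centring, filter, feature choice, spread, series block and single arrays.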

Additional observations from a re-analysis of the deposited data

Results flagged for a closer look

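For 3 of the genes every H929 array lay on one side of 0 and every KMS12 array at days 4-5 on the other. Each of these arrays set a hairpin culture against a control culture, but not all the KMS12 arrays shared the hairpin and day of H929. The part of hairpin and day in the opposite signs was not tested. The log2 difference, H929 minus KMS12, was -1.771 for SERPINA1, -1.336 for H1-2 and 1.306 for THOP1. The difference was not tested, since it chose the genes. Of the 3343 genes measured on all 5 arrays, 5.29% lay below 0 in H929 and above 0 in KMS12 and 4.67% the other way round. Groups were too small for a search for single outlying arrays.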

How the results depend on the processing

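At days 2-3 against uninduced, 0 genes were called in the reported fit, but 339 without centring, 3 with features on at least 7 arrays, 170 with features on all 13 and 904 with the induced arrays against 0. Leaving out 1 array gave 0 to 653, the highest without the series 2046 day 2 array. In SKMM1 158 genes were called, against 37, 257 and 255 with features on at least 7 arrays, on all 13 and each on its own. For the uninduced arrays leaving 1 out gave 0 to 1. The causes were not tested.

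With the culture series as a replicate block, days 2-3 against uninduced gave 0.55 for BATF, 0.41 for H1-2 and THOP1, -0.20 for SERPINA1 and -0.13 for OSBPL11, and no call changed. Of 74 values of the 5 genes under alternatives in this comparison 2 reversed, both SERPINA1: 0.112 against 0 and 0.086 with the sign of the series 2046 uninduced array turned, an alternative chosen after seeing the data. That turn also gave H1-2 -0.07 uninduced, and leaving out 1 array gave OSBPL11 -0.022 to 0.024. At days 4-5 against uninduced SERPINA1 was -0.024 without centring. THOP1 was 0.011 both with centring by classes of arrays measured and with features on all 13 arrays, and leaving out 1 array gave it -0.228 to 0.064. OSBPL11 ran between -0.01 and 0.141 with 1 array left out. The sign turned without the series 1332b day 4 array for THOP1 and without the series 2046 day 4 array for OSBPL11. The H929 difference, which chose the genes, says nothing of stability. It has no value for BATF without H929 repeat 2, nor for BATF and OSBPL11 with features on all 13 arrays. For BATF it was -0.53 with features on at least 7 arrays and -0.457 over all 5 features, the average over all 5 chosen after seeing the data. Signal over background was not analysed here, so how dim a feature was is unknown, and 1 array limits SKMM1 and 1 value limits BATF in H929.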

Other observations

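The KMS12 array at day 7, of series 1332, entered no comparison. SERPINA1 stood there at 85% of control, OSBPL11 at 77.1% and THOP1 at 139%, each on the side of 0 where H929 lay. H1-2 stood at 107% and BATF at 124%, the side opposite to H929. IRF4 stood at 59% on that array. No other array at day 7 was analysed here, so these are single values with no replicate check.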
